A study of Homo sapiens with 24 samples.

Results

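The 8 genes described here, HMGCS1, INSIG1, SCD, FASN, SQLE, IDI1, STARD4 and SREBF2, make, sense or carry sterols and fatty acids. They were chosen by name from the 25341 genes of the table, with earlier results of these data known. Their shares set beside those of all genes are therefore descriptions and not independent evidence. All 8 were among the 13416 genes tested, whose values averaged 1 TPM or more. TPM, the deposited unit of abundance, is a transcript's share of its library scaled for length. The cells were U2OS, an established human osteosarcoma line, carrying a stable Tet-off switch for TOB2 with the change S254D, which the series text calls phosphomimetic; whether the line is a single clone is not given in the sources used here. The uninduced arm had doxycycline in its medium and the induced arm had none, so the drug and the transgene cannot be told apart, and both arms kept their own TOB2 gene. Labelled RNA was recovered from the cytoplasm with an antibody to bromouridine after 0, 0.5, 1, 2, 4 and 6 h of chase. There were 24 libraries, 2 for each arm and time; the labels do not name separate cultures, so the p-values measure the spread between libraries that may be technical replicates.

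Cells hold their sterol level steady through a feedback loop. When membrane cholesterol is low, the SREBP proteins, encoded by SREBF1 and SREBF2, travel from the endoplasmic reticulum to the Golgi, are cut there, and switch on genes for cholesterol and fatty acid synthesis. When sterols are plentiful, INSIG proteins hold the SREBP escort SCAP in the endoplasmic reticulum and the genes fall quiet.

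TOB2 itself, counted over transgene and cell copy together, stood at 256.6 ± 15.2 TPM (SD, n = 2) uninduced and 584.9 ± 96.7 TPM induced at 0 h. At 6 h it stood at 98.6 ± 8.90 and 643.7 ± 95.1 TPM. The sequencing depth was unknown, 12594 to 13757 genes per library were at 1 TPM or above, and replicates correlated across genes with r from 0.97 to 0.986. The labels call the cells epithelial: KRT18 and VIM were abundant in every library (at least 1210.02 and 345.65 TPM), while EPCAM was listed at 0 in all 24 and CDH1 reached 0.57 TPM at most. Of the osteoblast markers, RUNX2 ranged from 1.68 to 7.53 TPM and COL1A2 was listed at 0 in 23 libraries. The summed hepatocyte markers reached 0.84 TPM uninduced and 0.63 TPM induced, and the summed adipocyte markers 1.81 and 2.56 TPM, with FABP4 and APOB at 0 in all 24. The 4 leukocyte markers summed to between 11.85 and 43.05 TPM uninduced and between 14.05 and 61.24 TPM induced, nearly all of it LYZ; their part in the results was not tested. The RNAs RMRP, MIR6723 and RPPH1 together took between 7.14% and 27.5% of a library's TPM.

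Promoters of 4 of the genes are shown because the members are textbook targets of SREBP and because these 4 mark the range of behaviour: SREBF2 and HMGCS1 climbed together, SCD differed most between the arms, and INSIG1 was at its own lowest at the end of the chase. Each line gives the 150 bases just before the annotated start, 5′ to 3′ on the gene's strand, from RefSeq on GRCh38.p14: SREBF2 at chr22:41832955-41833104 (+), HMGCS1 at chr5:43313413-43313562 (-), SCD at chr10:100347083-100347232 (+) and INSIG1 at chr7:155297728-155297877 (+). Capitals mark the sterol regulatory element (the first capitals in the SREBF2 line), the NF-Y box CCAAT, the SP1 box GGGCGG and the E-box CACGTG, read on either strand.
SREBF2: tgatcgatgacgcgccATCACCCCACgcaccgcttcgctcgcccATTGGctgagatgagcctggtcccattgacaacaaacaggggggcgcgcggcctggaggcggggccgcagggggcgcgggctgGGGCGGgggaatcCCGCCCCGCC
HMGCS1: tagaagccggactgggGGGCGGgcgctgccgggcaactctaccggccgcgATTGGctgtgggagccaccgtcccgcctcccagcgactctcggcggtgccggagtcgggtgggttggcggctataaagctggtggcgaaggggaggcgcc
SCD: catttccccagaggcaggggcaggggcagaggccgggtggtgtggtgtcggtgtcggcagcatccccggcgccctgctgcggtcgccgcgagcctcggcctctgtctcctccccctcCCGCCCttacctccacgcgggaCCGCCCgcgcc
INSIG1: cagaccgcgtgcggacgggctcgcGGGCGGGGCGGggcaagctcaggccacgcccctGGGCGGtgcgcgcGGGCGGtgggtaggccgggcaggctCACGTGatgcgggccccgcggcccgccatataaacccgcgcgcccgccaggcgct

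The search covered windows of 300 bases, 250 before and 50 after each start; 6 of the 8 genes had such windows, 9 in all. The element occurred in the SREBF2 window, 134 bases before its start, and in 0.0456% of the 35116 promoters of the table. The looser core TCACNCCAC, which overlaps it, occurred in the same place and in 1.13% of promoters. CCAAT occurred in 7 of the 9 windows and in at least 1 window of each of the 6 genes, against 34.6% of all promoters. GGGCGG occurred in all 9, against 45% of all promoters. CACGTG occurred in the INSIG1 window and in 7.26% of promoters. These are matches of letters and not measured binding.

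At the end of the pulse without induction, SCD was the most abundant of the 8 at 273.3 ± 61.7 TPM, followed by IDI1 at 140.4 ± 0.870 and INSIG1 at 74.8 ± 11.2 TPM (SD, n = 2). FASN at 50.9 ± 15.0 and SQLE at 40.6 ± 5.00 TPM overlapped in their libraries. STARD4 stood at 32.5 ± 3.48, HMGCS1 at 18.7 ± 1.31 and SREBF2 at 14.8 ± 1.98 TPM, with no overlap between neighbours. By 6 h the order had changed, because INSIG1 at 54.8 ± 10.8 TPM lay below FASN at 116 ± 6.92 and SQLE at 109.8 ± 4.45 TPM. At that time the libraries of IDI1 and FASN, of FASN and SQLE, and of INSIG1 and STARD4 overlapped. Together the 8 genes held 579.7 and 712.1 TPM in the uninduced libraries at 0 h and 1085.9 and 1281.3 TPM at 6 h. In the induced arm they held 830.1 and 932.9 TPM at 0 h and 1420.6 and 1846.6 TPM at 6 h. SCD made up the largest part of each of these sums.

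Whether relative decay differed between the arms is the question the design states, and slopes on hours of chase were fitted for it. Without induction 6 of the 8 genes rose as a share of labelled RNA and none fell, against 42.8% of all tested genes that rose and 22.3% that fell. Under quantile normalization the uninduced count was 5 higher and 2 lower, beside 4699 higher and 3112 lower of all 13416 genes. The 2 lower were INSIG1 (-0.13 log2 per hour, limma adjusted p = 0.0419) and IDI1 (-0.076, 0.00582). Under median-of-ratios scaling the uninduced count was 5 higher and 0 lower, beside 4064 and 4332 of all genes. With induction 6 rose and 2 fell, against 41.6% and 29% of all genes (70.7% in either direction). With the replicate 1 libraries alone 5 rose and 0 fell with induction, beside 4296 and 3659 of all genes. With the replicate 2 libraries alone 5 rose and 1 fell, beside 5310 and 2618. The members' median slope was 0.16 log2 per hour in each arm, beside medians of 0.039 and 0.028 over all genes. A slope above 0 is a gain relative to the other labelled RNAs, and fewer cells and less RNA per cell cannot be told apart in such bulk samples. None of the 8 slopes differed between the arms in the limma test after Benjamini-Hochberg adjustment, and none had an unadjusted p under 0.05; of all genes 0.343% passed, 0.00745% upward and 0.335% downward.

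**Figure D1:**
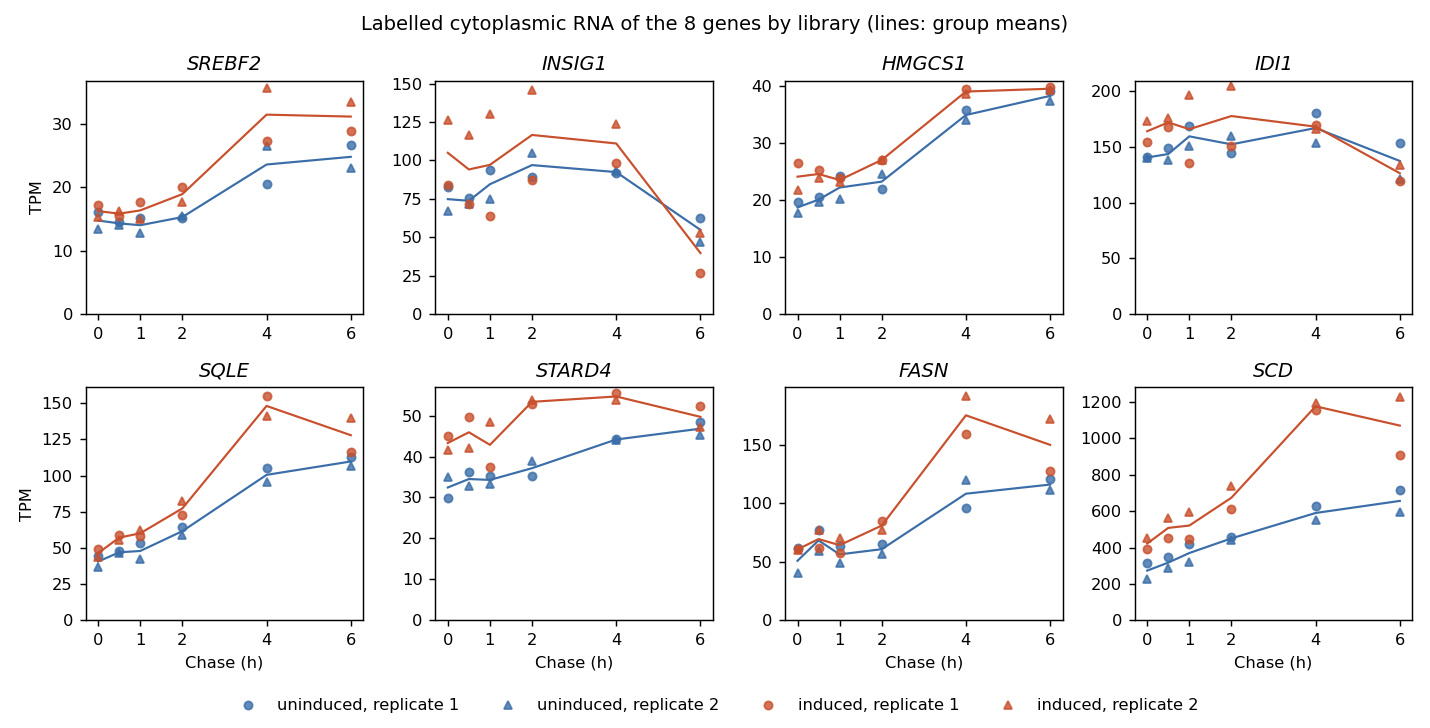
TPM of each of the 8 genes (vertical axes, from 0) against hours of chase, with a point for each library and lines through the group means of 2 libraries; blue is uninduced and orange induced, circles are replicate 1 and triangles replicate 2. SREBF2, HMGCS1, SQLE, STARD4, FASN and SCD are higher at 4 and 6 h than at 0 h in both arms. INSIG1 and IDI1 are lower at 6 h than at 4 h in both.

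SREBF2 encodes SREBP-2, the factor that drives sterol synthesis genes. In the uninduced arm its replicates 1 and 2 held 16.16 and 13.36 TPM at 0 h, 14.57 and 14.05 at 0.5 h, 15.19 and 12.85 at 1 h, 15.2 and 15.41 at 2 h, 20.61 and 26.61 at 4 h, and 26.64 and 23.01 at 6 h. In the induced arm they held 17.2 and 15.31 TPM at 0 h, 15.49 and 16.2 at 0.5 h, 17.7 and 15.02 at 1 h, 20.12 and 17.75 at 2 h, 27.32 and 35.66 at 4 h, and 28.89 and 33.48 at 6 h. The mRNA was level for the first hour and then climbed in both arms, and the arms did not overlap at 0.5, 2, 4 and 6 h, with induced higher. The slope was 0.15 log2 per hour uninduced (SE 0.0241, limma adjusted p = 1.18e-05) and 0.18 induced (SE 0.0241, limma adjusted p = 3.36e-07). Their difference was 0.038 log2 per hour, with a 95% interval from -0.0326 to 0.108. The table lists a coding and a noncoding transcript for SREBF2, and the noncoding transcript's share of the gene's TPM was 17% at 0 h and 3.88% at 6 h uninduced, and 16.1% and 7.46% induced.

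INSIG1 encodes a membrane protein that retains SCAP when sterols are high, and is itself a target of SREBP. The uninduced libraries held 82.71 and 66.86 TPM at 0 h, 75.65 and 71.77 at 0.5 h, 94.04 and 74.97 at 1 h, 89.36 and 104.56 at 2 h, 91.75 and 93.04 at 4 h, and 62.37 and 47.13 at 6 h. The induced libraries held 83.79 and 126.13 TPM at 0 h, 71.85 and 116.38 at 0.5 h, 63.79 and 130.46 at 1 h, 87.41 and 145.77 at 2 h, 98.57 and 123.52 at 4 h, and 26.84 and 52.47 at 6 h. Both arms were lowest at 6 h, and the induced replicate 2 was above the induced replicate 1 at all 6 times, by 0.72 log2 on average. INSIG1 fell over the chase with induction at -0.18 log2 per hour (SE 0.0591, limma adjusted p = 0.0108). Without the induced 6 h library of replicate 1 that slope was -0.070 (limma adjusted p = 0.298), and over 0 to 4 h it was 0.057 (limma adjusted p = 0.451). The uninduced slope was -0.053 (SE 0.0591, limma adjusted p = 0.44), and the difference of the slopes, -0.12, had an interval from -0.294 to 0.0502. From 4 to 6 h the group mean of log2(TPM + 1) changed by -0.76 uninduced and by -1.53 induced, at percentiles 4.38 and 0.395 of all tested genes. The median gene changed by -0.031 and -0.051 over the same 2 h. One of its 3 listed transcripts, NM_005542, carried between 83.6% and 98% of the gene's TPM.

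IDI1, the isomerase that makes dimethylallyl diphosphate for isoprenoid and sterol chains, was the other gene whose group mean was lower at 6 h than at 4 h in both arms; with induction those of FASN, SQLE, SCD, STARD4 and SREBF2 also changed by -0.23, -0.21, -0.15, -0.14 and -0.0053 log2. Without induction, replicates 1 and 2 gave 141.01 and 139.78 TPM at 0 h, 148.58 and 138.49 at 0.5 h, 168.23 and 150.51 at 1 h, 144.76 and 159.63 at 2 h, 180.17 and 153.52 at 4 h, and 153.8 and 120.73 at 6 h. With induction they gave 154.34 and 173.59 TPM at 0 h, 167.79 and 176 at 0.5 h, 135.55 and 196.05 at 1 h, 150.47 and 204.73 at 2 h, 169.72 and 166.41 at 4 h, and 119.04 and 133.53 at 6 h. The arms overlapped from 1 h on. IDI1 fell with induction at -0.055 log2 per hour (SE 0.0241, limma adjusted p = 0.0451) and had a slope of -0.0016 uninduced (limma adjusted p = 0.959). The induced call was lost without any of 10 libraries, with adjusted p up to 0.323: uninduced replicate 1 at 0.5 and 2 h, uninduced replicate 2 at 1 and 4 h, induced replicate 1 at 0.5 and 6 h, and induced replicate 2 at 0, 0.5, 1 and 6 h. It was lost as well with no filter on low values (0.059) and without the variance trend (0.0505). Neither replicate series alone kept it (limma adjusted p = 0.256 and 0.0675). Over 0 to 4 h the induced slope was 0.0078 (limma adjusted p = 0.852). From 4 to 6 h the group mean changed by -0.29 log2 uninduced and -0.41 induced, at percentiles 22.3 and 16.2 of all genes.

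**Figure D2:**
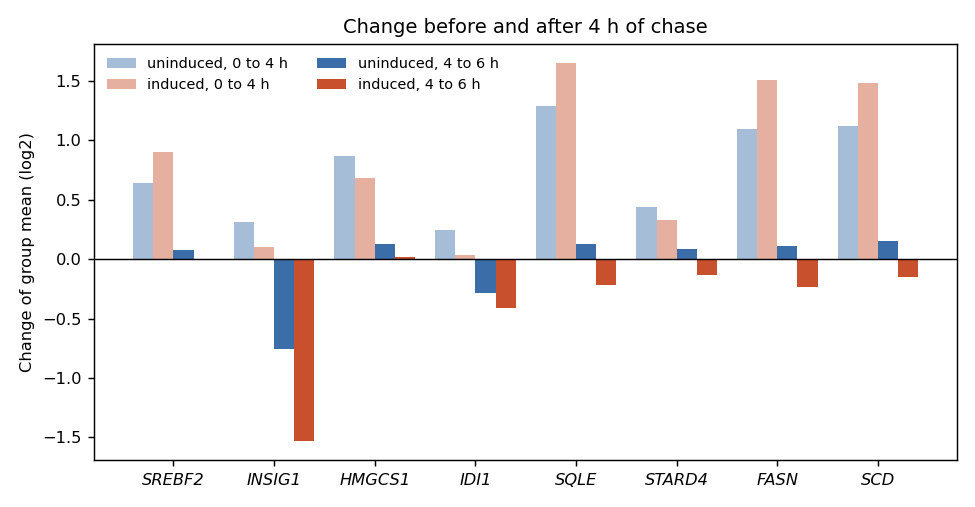
Change of the group mean of log2(TPM + 1) (vertical axis) from 0 to 4 h (pale bars) and from 4 to 6 h (full bars) for each gene, blue uninduced and orange induced, each bar a difference of means of 2 libraries without an error bar. INSIG1 has the lowest late bars, -0.76 and -1.53, and SQLE the highest early bars, 1.29 and 1.65.

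HMGCS1 makes HMG-CoA, an early intermediate of the mevalonate pathway. Levels without induction were 19.63 and 17.78 TPM at 0 h, 20.5 and 19.64 at 0.5 h, 24.14 and 20.26 at 1 h, 21.86 and 24.61 at 2 h, 35.82 and 34.05 at 4 h, and 39.19 and 37.4 at 6 h. Levels with induction were 26.45 and 21.76 TPM at 0 h, 25.25 and 23.9 at 0.5 h, 23.86 and 23.17 at 1 h, 26.99 and 27.1 at 2 h, 39.52 and 38.59 at 4 h, and 39.8 and 39.3 at 6 h. Induced libraries lay above uninduced ones at 5 of 6 times, and the share of all genes that did so was not counted. The group means at 6 h were 38.3 ± 1.27 TPM uninduced and 39.6 ± 0.354 TPM induced (SD, n = 2). HMGCS1 rose at 0.18 log2 per hour uninduced (SE 0.0178, limma adjusted p = 9.84e-09) and at 0.14 induced (SE 0.0178, limma adjusted p = 2.27e-07). The 6 h mean was 2.05 times the 0 h mean uninduced and 1.64 times induced, and the slope difference of -0.036 had an interval from -0.0883 to 0.0155. The split between its 2 listed transcripts varied widely among libraries, with NM_001098272 at 11.8% to 74.8% of the gene's TPM.

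SQLE, squalene epoxidase, carries out the first oxygen-requiring step of sterol synthesis and had the steepest climb of the 8. Uninduced replicates 1 and 2 measured 44.18 and 37.11 TPM at 0 h, 47.73 and 46.35 at 0.5 h, 53.44 and 42.47 at 1 h, 64.22 and 59.06 at 2 h, 105.18 and 95.89 at 4 h, and 112.93 and 106.64 at 6 h. Induced replicates 1 and 2 measured 49 and 44 TPM at 0 h, 58.69 and 55.64 at 0.5 h, 58.14 and 62.22 at 1 h, 72.55 and 82.18 at 2 h, 155.02 and 141.31 at 4 h, and 116.17 and 139.72 at 6 h. The arms overlapped at 0 h alone. SQLE rose at 0.25 log2 per hour uninduced (SE 0.0290, limma adjusted p = 7.05e-08) and at 0.27 induced (SE 0.0290, limma adjusted p = 2.02e-08), at percentiles 96.8 and 96.5 of all genes. The 6 h mean was 2.7 times the 0 h mean uninduced and 2.75 times induced. The slope difference was 0.013 log2 per hour, with an interval from -0.0711 to 0.0981.

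STARD4, a soluble protein that carries cholesterol between membranes, had the flattest of the rising slopes. Without induction, replicates 1 and 2 gave 29.99 and 34.91 TPM at 0 h, 36.19 and 32.82 at 0.5 h, 35.33 and 33.26 at 1 h, 35.35 and 38.96 at 2 h, 44.32 and 44.01 at 4 h, and 48.36 and 45.25 at 6 h. With induction they gave 45.09 and 41.52 TPM at 0 h, 49.7 and 42.14 at 0.5 h, 37.34 and 48.37 at 1 h, 52.88 and 53.83 at 2 h, 55.58 and 53.75 at 4 h, and 52.26 and 47.11 at 6 h. Induced libraries lay above uninduced ones at every time up to 4 h and overlapped them at 6 h. STARD4 rose at 0.089 log2 per hour uninduced (SE 0.0183, limma adjusted p = 0.00016), a call lost under quantile normalization (0.016, limma adjusted p = 0.464) and median-of-ratios scaling (0.041, limma adjusted p = 0.0534). The induced slope was 0.042 (SE 0.0183, limma adjusted p = 0.0448). It turned below 0 under quantile normalization (-0.017), without the 3 abundant RNAs (-0.0062) and with protein-coding transcripts alone (-0.016). The induced call was lost under median-of-ratios scaling (0.0055, limma adjusted p = 0.797) and over 0.5 to 6 h (0.035, 0.152). Neither replicate series alone kept it (limma adjusted p = 0.155 and 0.281). That call was also lost, with adjusted p up to 0.0977, without any of 10 libraries: uninduced replicate 1 at 1 and 6 h, uninduced replicate 2 at 0.5 h, induced replicate 1 at 0, 1, 4 and 6 h, and induced replicate 2 at 0, 0.5 and 4 h. The slope difference was -0.048, with an interval from -0.101 to 0.00556.

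FASN, the multi-domain enzyme that builds palmitate, had a slope near that of SQLE with induction and near that of SCD without it. Levels without induction were 61.45 and 40.3 TPM at 0 h, 77.07 and 59.49 at 0.5 h, 63.45 and 49.22 at 1 h, 65.1 and 56.47 at 2 h, 96.1 and 120.17 at 4 h, and 120.84 and 111.06 at 6 h. Levels with induction were 61.35 and 59.81 TPM at 0 h, 61.41 and 77.47 at 0.5 h, 57.95 and 70.43 at 1 h, 85.07 and 76.79 at 2 h, 158.83 and 191.27 at 4 h, and 127.37 and 172.3 at 6 h. The arms overlapped up to 1 h and were separate from 2 h on, with induced higher. FASN rose at 0.20 log2 per hour uninduced (SE 0.0371, limma adjusted p = 5.07e-05) and at 0.26 induced (SE 0.0371, limma adjusted p = 1.41e-06). The slope difference was 0.057, with an interval from -0.0515 to 0.165.

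SCD, the desaturase that makes oleate and palmitoleate, was the most abundant of the 8 in every library. Uninduced replicates 1 and 2 measured 316.93 and 229.64 TPM at 0 h, 346.75 and 287.77 at 0.5 h, 419.64 and 319.97 at 1 h, 457.48 and 442.95 at 2 h, 627.87 and 551.39 at 4 h, and 717.18 and 594.69 at 6 h. Induced replicates 1 and 2 measured 392.93 and 450.78 TPM at 0 h, 454.69 and 560.87 at 0.5 h, 447.99 and 593.2 at 1 h, 609.46 and 737.49 at 2 h, 1155.22 and 1195.31 at 4 h, and 910.19 and 1228.73 at 6 h. Induced libraries lay above uninduced ones at all 6 times, and SCD alone of the 8 showed this. At a single time between 16.2% and 31.3% of all genes did so, and the shares that did so at several or all 6 times were not counted. In the uninduced arm replicate 2 was the lower library at all 6 times, and in the induced arm it was the higher at all 6. SCD rose at 0.21 log2 per hour uninduced (SE 0.0316, limma adjusted p = 3.83e-06) and at 0.24 induced (SE 0.0316, limma adjusted p = 2.74e-07), with a slope difference of 0.036 and an interval from -0.0562 to 0.128.

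The levels over the whole chase, as the mean of the 6 differences between arms, were higher with induction for 6 of the 8 genes and lower for none. Over all genes 25.7% passed, 14.3% higher and 11.4% lower. The members' median difference was 0.28 log2, beside 0.051 over all genes. SCD differed by 0.68 log2 or 1.6-fold on the log2(TPM + 1) scale (SE 0.0786, limma adjusted p = 1.74e-05), at percentile 99.6 of all genes. The differences were 0.33 for the sterol carrier gene STARD4 (SE 0.0501, limma adjusted p = 0.00017), 0.32 for FASN (SE 0.0840, limma adjusted p = 0.0102) and 0.31 for SQLE (SE 0.0511, limma adjusted p = 0.000334). They were 0.25 for SREBF2 (SE 0.0632, limma adjusted p = 0.00941) and 0.19 for HMGCS1 (SE 0.0445, limma adjusted p = 0.00607). INSIG1 at 0.14 (95% interval -0.157 to 0.44, limma adjusted p = 0.485) and IDI1 at 0.10 (-0.0385 to 0.246, limma adjusted p = 0.268) did not pass. The test of level treats the libraries of the 6 times as independent. For SCD, replicate 2 was the lower library at all 6 uninduced times and the higher at all 6 induced times. Where libraries of a series deviate together in this way, the SE and p-values of the level differences understate the uncertainty.

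**Figure D3:**
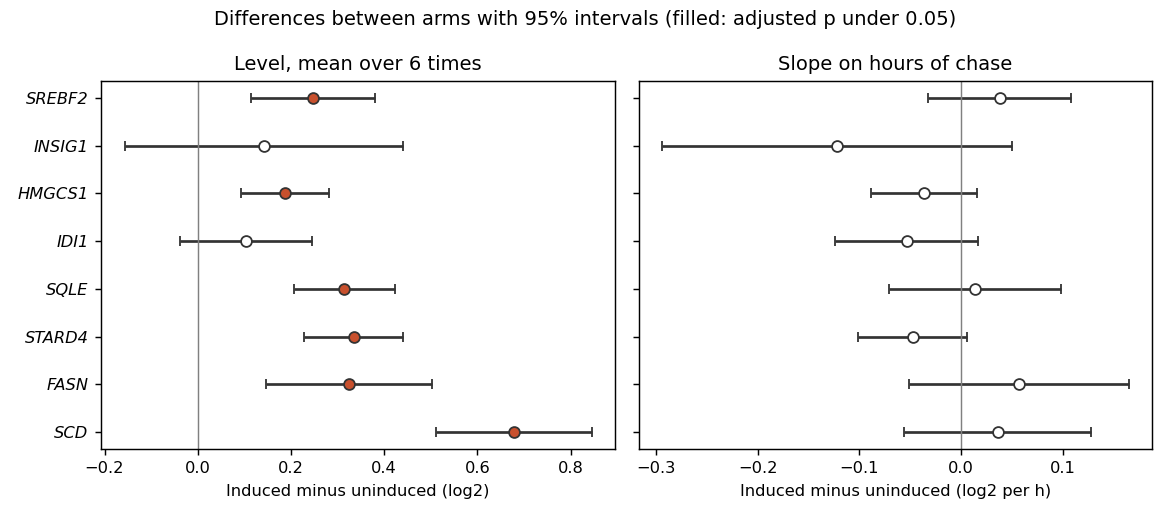
Induced minus uninduced for each gene with 95% intervals from limma: on the left the level averaged over the 6 times (log2), on the right the slope (log2 per hour). The intervals treat the libraries of the 6 times as independent. Filled points have an adjusted p under 0.05. On the left 6 of 8 points are filled, with SCD farthest out at 0.68, and on the right every interval holds 0.

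The size of the level difference varied between the replicate series. In the replicate 1 libraries alone, 2 of the 8 genes passed, SCD and STARD4, and in the replicate 2 libraries alone all 8 did. Of all genes, 11.3% and 21% passed in these series. By direction, 1092 were higher and 423 lower in series 1, and 1435 higher and 1376 lower in series 2. The difference of SCD was 0.40 log2 in series 1 and 0.95 in series 2, and that of FASN 0.12 and 0.53. INSIG1 lay at -0.29 in series 1 and 0.57 in series 2, and IDI1 at -0.067 and 0.28, so both changed sign. SQLE (0.22 and 0.41), SREBF2 (0.21 and 0.28), HMGCS1 (0.19 and 0.19) and the carrier STARD4 (0.35 and 0.32) were higher with induction in both. Leaving out any single library kept the count at 6.

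**Figure D4:**
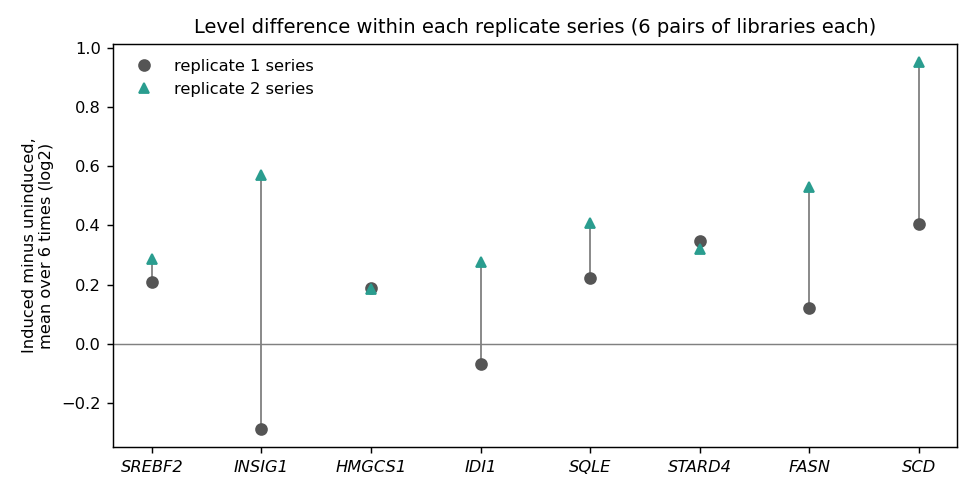
Induced minus uninduced level, averaged over the 6 times (log2, vertical axis), for each gene within the replicate 1 series (circles) and the replicate 2 series (triangles), each point a mean of 6 library differences. STARD4 and HMGCS1 have nearly the same value in both series, while INSIG1 goes from -0.29 to 0.57.

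At 0 h, the end of the pulse, all 8 differences lay above 0, with a median of 0.31 log2 against 0.049 over all genes. None passed adjustment, and 3 had an unadjusted p under 0.05, as did 881 of the 13416 genes: SCD at 0.64, STARD4 at 0.41 and HMGCS1 at 0.34 log2. With a single pair of libraries per arm at this time, 4 of all genes or 0.0298% passed, 0.0224% higher and 0.00745% lower. The libraries of both arms were separate, with induced higher, for 5 of the 8 genes at 0 h, 6 at 0.5 h, 3 at 1 h, 6 at 2 h, 7 at 4 h and 5 at 6 h. The same separation upward was met by 16.2%, 21.6%, 23.3%, 30.7%, 25.6% and 31.3% of all genes at those times. No member had both induced libraries below both uninduced ones at any time, a pattern met by 10.9%, 17.1%, 9.91%, 13.9%, 23.1% and 28.4% of all genes from 0 to 6 h.

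A value named curvature was tested next, the mean of 1 and 2 h minus the mean of 0 and 6 h. Because 1 and 2 h come earlier on average than 0 and 6 h, a steady climb also gives a value below 0. A steady fall likewise gives a value above 0. Curvature therefore mixes slope with shape and cannot tell a late climb from a steady one. Uninduced, 3 of the 8 genes passed with a value below 0: SREBF2 at -0.36 (limma adjusted p = 0.0277), SQLE at -0.30 (0.0267) and HMGCS1 at -0.23 (0.0439). Of all genes 18.6% passed, 7.18% below 0 and 11.4% above. No member passed without uninduced replicate 1 at 0 or 6 h or uninduced replicate 2 at 1 h. SREBF2 was also lost without uninduced replicate 1 or replicate 2 at 2 h, SQLE without uninduced replicate 2 at 2 or 6 h, and HMGCS1 without 16 of the 24 libraries, uninduced replicate 1 at 1 h, uninduced replicate 2 at 2 h and the induced libraries up to 1 h being those whose loss left it. With induction SREBF2 at -0.34 (limma adjusted p = 0.0283) and HMGCS1 at -0.28 (0.0126) passed below 0, and INSIG1 passed above it at 0.70 (0.0431). Of all genes 7.92% passed below 0 and 19.9% above (27.8% in all). The INSIG1 call was lost without 10 of the 24 libraries, those of the uninduced arm at 0.5, 2 and 4 h, induced replicate 1 at 0 and 6 h and induced replicate 2 at 1 and 2 h, with values down to 0.44. It was also lost under quantile normalization (limma adjusted p = 0.0964), median-of-ratios scaling (0.0865), without the 3 abundant RNAs (0.0505), with no filter (0.0833) and without the variance trend (0.0549). SREBF2 was lost without induced replicate 1 at 0 h or induced replicate 2 at 1, 2 or 6 h, and HMGCS1 without induced replicate 1 at 0 h. FASN, at -0.40 with induction, had a limma adjusted p of 0.0525 and 0.0473 with the replicate number in the model.

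Over the 12 group means the members fell into patterns that the correlations describe without a test. HMGCS1, FASN, SQLE, SREBF2 and SCD correlated with one another at r of at least 0.908, and INSIG1 and IDI1 with each other at 0.911. STARD4 correlated at 0.901 with SCD and between 0.769 and 0.793 with HMGCS1, FASN and SQLE. INSIG1 correlated at -0.055 with the mean profile of the 8, and IDI1 at 0.13. The points share libraries and a common time axis. Outside the 8, the genes most like their mean profile among those with at least 5 TPM were FNDC3A (r = 0.986), SCAMP1 (0.983), CHRNA5 (0.979), HELZ (0.978) and CNNM4 (0.976).

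Around the 8, 57 further gene symbols of lipid supply were looked up, PTPLAD1 and HACD3 being names of the same gene. Of these, 56 were in the table and 54 were tested. These symbols too were chosen with earlier results of these data known. Over the chase, 34 of the 54 rose and 8 fell uninduced, and 36 rose and 6 fell induced; these are 63% and 14.8%, and 66.7% and 11.1%, beside 42.8% and 22.3%, and 41.6% and 29%, of all genes. In level, 28 were higher with induction and 1 lower, or 51.9% and 1.85% beside 14.3% and 11.4% of all genes, with a median of 0.18 log2 beside 0.051. None of the 54 slopes differed between arms after adjustment, and 8 had an unadjusted p under 0.05, as did 1673 of the 13416 genes. In the replicate 1 series alone 12 of the 54 differed in level, all higher, beside 1092 higher and 423 lower of all 13416 genes. In the replicate 2 series 30 were higher and 1 lower, beside 1435 and 1376 of all genes.

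Of the 20 genes of mevalonate and sterol synthesis, 12 rose and 3 fell uninduced (60% and 15%, beside 42.8% and 22.3% of all genes). Induced, 13 rose and 3 fell (65% and 15%, beside 41.6% and 29%). In level, 8 were higher with induction (40%, beside 14.3% of all genes) and none lower. Among them were DHCR7 at 0.38 log2, which makes cholesterol from a late precursor, SC5D at 0.33, LBR at 0.32, LSS at 0.30, CYP51A1 at 0.28 and FDFT1 at 0.21, with limma adjusted p from 5.95e-05 (LBR) to 0.0234 (LSS). The smallest p values for a slope difference belonged to ACAT2 (0.073, limma adjusted p = 0.278) and MVD (0.11, 0.305). LSS was lost, with adjusted p up to 0.0516, without uninduced replicate 2 at 0 or 2 h or induced replicate 1 at 2 h. FDFT1 was lost under median-of-ratios scaling (0.0657). With the replicate 1 libraries alone DHCR7 was at 0.18 (limma adjusted p = 0.263), LSS at 0.25 (0.0555) and FDFT1 at 0.11 (0.401). SC5D, LBR and CYP51A1 passed there, and each of these named genes passed with the replicate 2 libraries alone.

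Of the 16 tested genes of sterol sensing, uptake and transport, 10 rose and 3 fell uninduced (62.5% and 18.8%, beside 42.8% and 22.3% of all genes). Induced, 10 rose and 2 fell (62.5% and 12.5%, beside 41.6% and 29%). In level, 8 were higher and 1 lower with induction (50% and 6.25%, beside 14.3% and 11.4%). SREBF1, which encodes the SREBP that leans toward fatty acid genes, was higher by 0.52 log2 (limma adjusted p = 0.000323). MBTPS2 (0.24) and MBTPS1 (0.18), the proteases that cut SREBP, INSIG2 (0.20) and the cholesterol esterifying SOAT1 (0.19) were higher too. NR1H2, an oxysterol receptor, was lower by -0.22 log2 (limma adjusted p = 0.00716). MYLIP, a ubiquitin ligase gene, fell fastest uninduced at -0.57 log2 per hour, from 23.9 ± 1.2 to 2.37 ± 0.587 TPM, and SOAT1 rose fastest at 0.24. For the slope difference the smallest p values were those of RNF139 (-0.16, limma adjusted p = 0.227) and INSIG2 (-0.11, 0.281). Both passed when the trend was taken from the 12 group means (0.00137 and 0.0228). Of the 54 wider list genes 2 passed there, both downward, beside 823 of all 13416 genes, 36 upward and 787 downward. MBTPS1 was lost in level without 16 of the 24 libraries, and INSIG2 under quantile normalization (0.18) and median-of-ratios scaling (0.0977). With the replicate 1 libraries alone MBTPS2 (limma adjusted p = 0.145), MBTPS1 (0.14), INSIG2 (0.206), SOAT1 (0.0523) and NR1H2 (0.253) were lost in level. INSIG2 was lost with the replicate 2 libraries alone as well (0.264), while SREBF1 passed in both series.

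Of the 18 tested genes of fatty acid synthesis, elongation and desaturation, 12 rose and 2 fell uninduced (66.7% and 11.1%, beside 42.8% and 22.3% of all genes). Induced, 13 rose and 1 fell (72.2% and 5.56%, beside 41.6% and 29%). In level, 12 were higher with induction (66.7%, beside 14.3% of all genes) and none lower. LPIN1, a phosphatidate phosphatase, was higher by 0.45 log2 (limma adjusted p = 1.08e-05), the elongase ELOVL6 by 0.43 (6.78e-05) and the desaturase SCD5 by 0.39 (0.00734). The acyl-CoA synthetases ACSL3 (0.31), ACSL4 (0.24) and ACSL1 (0.18), the acetyl-CoA carboxylase ACACA (0.30), ME1 (0.26), ELOVL5 (0.26), PTPLAD1 (0.21), ACLY (0.18) and FADS1 (0.18) followed. ACSL1 and ACLY were lost without 18 and 11 of the 24 libraries, with adjusted p up to 0.0983 and 0.0739. FADS1 was lost under quantile normalization (0.125) and median-of-ratios scaling (0.0773). With the replicate 1 libraries alone ACACA (limma adjusted p = 0.103), ELOVL5 (0.0758), ACLY (0.18), FADS1 (0.541) and ACSL1 (0.0979) were lost. ME1 (0.0978), ACLY (0.0717) and ACSL1 (0.225) were lost with the replicate 2 libraries alone. PTPLAD1 and TECR, parts of the elongation cycle, had the steepest uninduced slopes at 0.28 and 0.20 log2 per hour; that of TECR was 0.18 with protein-coding transcripts alone (limma adjusted p = 0.134). ACLY and LPIN1 had the smallest p values for a slope difference (0.071 and 0.065, limma adjusted p = 0.335 and 0.31).

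**Figure D5:**
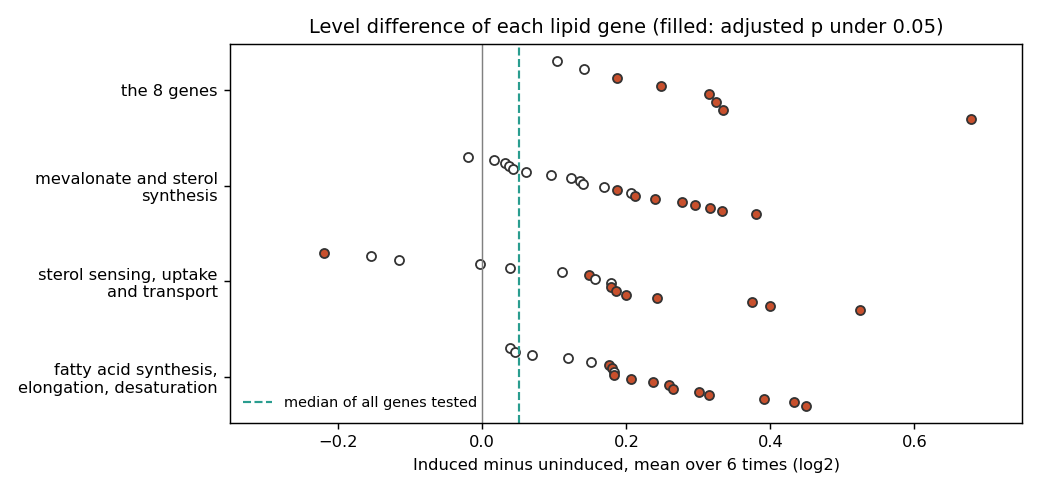
Induced minus uninduced level averaged over the 6 times (log2, horizontal axis) for each of the 8 genes and each tested gene of the 3 wider lists, with 1 point per gene, filled where the adjusted p was under 0.05; the vertical offset only separates points. The dashed line is the median of all genes tested, 0.051, and SCD at 0.68 lies farthest right.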

How the data were processed

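Bromouridine-labelled cytoplasmic RNA was sequenced in 24 libraries. The deposited values are TPM for each RefSeq transcript, made by the authors with RSEM 1.3.0, Bowtie2 and Trim Galore among the tools and hg19 as the build, per the submitters' processing notes, which give no roles. TPM keep no depth, so no counting error could be given. The sum over the 48009 transcripts by symbol gave 25341 genes, and 13416 averaging 1 TPM or more were tested. Models used limma 3.58.1 in R 4.3.3 with data.table (1.17.8) on log2(TPM + 1), with variances that follow the mean level. One model gave each arm a line on hours (20 residual degrees of freedom), the other gave each of 12 groups a mean (12). Tests were two-sided with Benjamini-Hochberg adjustment over all tested genes and a threshold of 0.05. The scripts were tested on simulated data, and figures used matplotlib 3.10.9 in Python 3.11.15.

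The 8 genes and the wider lists were chosen with earlier results of these data known. Named genes were TOB2, the 8 members, all genes of the wider lists past the threshold in level or slope difference, the 2 with the smallest slope difference p where none passed, the 2 steepest uninduced slopes of each list, and the 5 genes most like the members. Some genes that this rule takes from the wider lists are counted but not reported here by name. Alternatives were the pseudocount, filter, scaling, transcripts summed, variance trend, chase times, model, replicate block and leaving out each library. The analysis of each replicate series alone was chosen after seeing the data, and its level test paired the libraries of the arms by time.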

Additional observations from a re-analysis of the deposited data

How the results depend on the processing

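Under each pseudocount, filter, scaling, choice of transcripts, variance trend and the replicate block, and without any single library, 6 of the 8 genes were higher in level. None differed in slope under these, other chase times, the trend of group means or either replicate series. In the replicate 1 series alone 5 of 8 genes passed the threshold in the induced slope, beside 7955 of all 13416 genes. In level 2 of 8 passed there, with 12 wider list genes and 1515 of all genes. Over all genes 46 slopes differed; the number was 88 and 25 with pseudocounts of 0.1 and 5, 30 with no filter, 84 at a mean of at least 5 TPM, 179 under quantile normalization, 328 without RMRP, MIR6723 and RPPH1, 400 with protein-coding transcripts, 823 as a trend of group means (2 of the wider lists), and 0 over 0 to 4 h and in each replicate series. At 0 h 4 genes differed, and 7, 8, 10 and 2 under quantile normalization, without those RNAs, with protein-coding transcripts and without the variance trend. Leaving out each library gave 8 to 164 genes for the slope difference and 0 to 5 at 0 h. It gave 5 to 8 members for the induced slope, 0 to 3 for uninduced and 0 to 4 for induced curvature. Over all genes these ranges were 8868 to 9528, 1727 to 2679 and 2789 to 3883. Wider list genes numbered 9 to 17 for induced curvature. Same-numbered libraries of the arms deviated together with r from 0.0203 to 0.156, over 0.1 at 3 of 6 times. Over all 66 pairs of groups r ran from -0.0364 to 0.253, over 0.1 for 29. The numbers were not taken as pairs outside the level test within each replicate series. With the replicate block 99 slopes, 11 genes at 0 h and 4721 levels differed. Induced curvature then passed for 4 members, beside 4821 of all genes. Values that turned sign were the STARD4 induced slope (-0.017, -0.0062 and -0.016, in the report) and induced curvature (-0.030 quantile, -0.016 median-of-ratios), the SQLE slope difference (-6.5e-05, protein-coding), the slopes over 0 to 4 h of INSIG1 (0.089 uninduced, 0.057 induced) and IDI1 (0.054 and 0.0078), and in replicate series 1 the IDI1 uninduced slope (0.023) and the levels of INSIG1 (-0.29) and IDI1 (-0.067). Leaving out 1 library turned the sign within these ranges: uninduced slopes of INSIG1 (-0.070 to 0.0016) and IDI1 (-0.012 to 0.030), SQLE slope difference (-0.0069 to 0.060), FASN at 0 h (-0.020 to 0.58), SCD uninduced curvature (-0.16 to 0.068) and STARD4 induced curvature (-0.052 to 0.13). The cause was not tested. Rising slopes were 65.8% of calls uninduced and 58.9% induced, and 48.4% and 49.1% under median-of-ratios scaling; higher levels were 55.6%, and 67.7% with protein-coding transcripts, 65.8% without the 3 RNAs, 48.7% under quantile normalization and 45.9% under median-of-ratios scaling. Quantile normalization shifted the median induced curvature of all genes by -0.10. The depth was unknown and each group held 2 libraries.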
